A study of Mus musculus with 9 samples.

Results

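Left ventricles of wild-type mice fed a high-fat diet (HFD, a reading of the label) were compared between animals given an adeno-associated virus (AAV) vector named for Bckdk (HFD+AAV-BCKDK) and animals given a control vector (HFD+AAV-CON). These 6 libraries, 3 per group, were taken by their labels from the 9 libraries of the series. The other 3 come from wild-type mice on the ND diet, taken as normal diet, with the control vector (ND+AAV-CON), and serve here as a reference and in the shared estimate of the spread. All 9 animals carried a vector, so no heart without AAV was measured. The sources used here give no diet composition, feeding time, age, sex, vector dose, serotype or promoter. Each library is bulk mRNA sequencing of left ventricular tissue, so a change in a gene specific to 1 cell type cannot be told apart as fewer cells of that type or as less RNA per cell. Of 22036 annotated genes, 14160 held enough reads to be tested. Levels are given in CPM, the depth-normalised read count, on library sizes scaled by TMM (trimmed mean of M values), and changes as log2 differences, HFD+AAV-BCKDK minus HFD+AAV-CON, with the standard error (SE) of the fit. A gene is said to rise or fall when its adjusted p in edgeR's quasi-likelihood test was under 0.05.

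Leucine, isoleucine and valine are first transaminated and then oxidized by the branched-chain α-ketoacid dehydrogenase complex of the mitochondrial matrix. Bckdk encodes the kinase that phosphorylates and inhibits this complex, and Ppm1k the phosphatase that reactivates it. Heart muscle draws most of its energy from mitochondrial oxidation, chiefly of fatty acids, and loss of that oxidative programme together with fibrosis and inflammation is a familiar picture in strained hearts. The title of the series places BCKDK in obesity-related cardiac remodelling and names mitochondrial ROS along with JNK and p38 signalling.

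Annotated genes received 32803233 to 45483044 counts per library in the 6 high-fat-diet libraries. HFD+AAV-CON replicate 3 stood apart from all other libraries in a pair of measures. Its level lay between those of its 2 group mates for 64.2% of the genes tested, against 14.9% to 37.7% for the other 8 libraries within their own groups. It held 1.02% of its counts in loci without a gene name, against 4.75% to 6.01% in the others. Whether it is an independent animal was not tested, and results are therefore given with it and without it. In what follows, "without replicate 3" means without this library, and where 2 adjusted p values stand together the second is from that fit. The 3 HFD+AAV-CON libraries also differed widely among themselves. Replicate 1 was farthest from and replicate 2 nearest to the HFD+AAV-BCKDK libraries for most of the genes whose values are given here. Mitochondrially encoded transcripts took 45.3%, 47.6% and 45.0% of counts in HFD+AAV-BCKDK and 26.1%, 39.9% and 33.2% in HFD+AAV-CON (exact two-sided permutation p = 0.1, the smallest that 3 against 3 allows). This share moves with the groups, and scaling by total counts instead of TMM shifts the median of all genes from -0.01 to -0.47. Cardiomyocyte markers such as Myh6, Tnnt2 and Myl2 were abundant in all 9 libraries, as the labelled tissue implies. The atrial light chain Myl7 had no count in any HFD+AAV-BCKDK library, but held enough reads in the control-vector libraries to be tested.

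In the HFD+AAV-BCKDK hearts, genes of mitochondrial energy metabolism were higher and genes of immune cells, interferon responses and matrix were lower than in HFD+AAV-CON hearts. Of 14160 genes tested, 5410 were called (38.2%), of which 2444 rose (17.3%) and 2966 fell (20.9%). Large changes were mostly falls. Only 203 genes (1.43%) rose at least 2-fold, whereas 1461 (10.3%) fell at least 2-fold. Without replicate 3, 2847 genes were called (19.9%), with 984 higher (6.87%) and 1863 lower (13.0%). Of the 2444 rises, 970 were still called in that fit, and of the 2966 falls 1856 were. Leaving out HFD+AAV-CON replicate 1 or HFD+AAV-BCKDK replicate 1 or 2 also cut the calls by more than 1.5 times, to 3434, 3194 and 3403. With total-count scaling 7265 genes (51.3%) were called, 398 (2.81%) higher and 6867 (48.5%) lower, so the balance of directions depends on the scaling. The replicates are separate samples in the labels, and p values measure the spread between them.

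**Figure D1:**
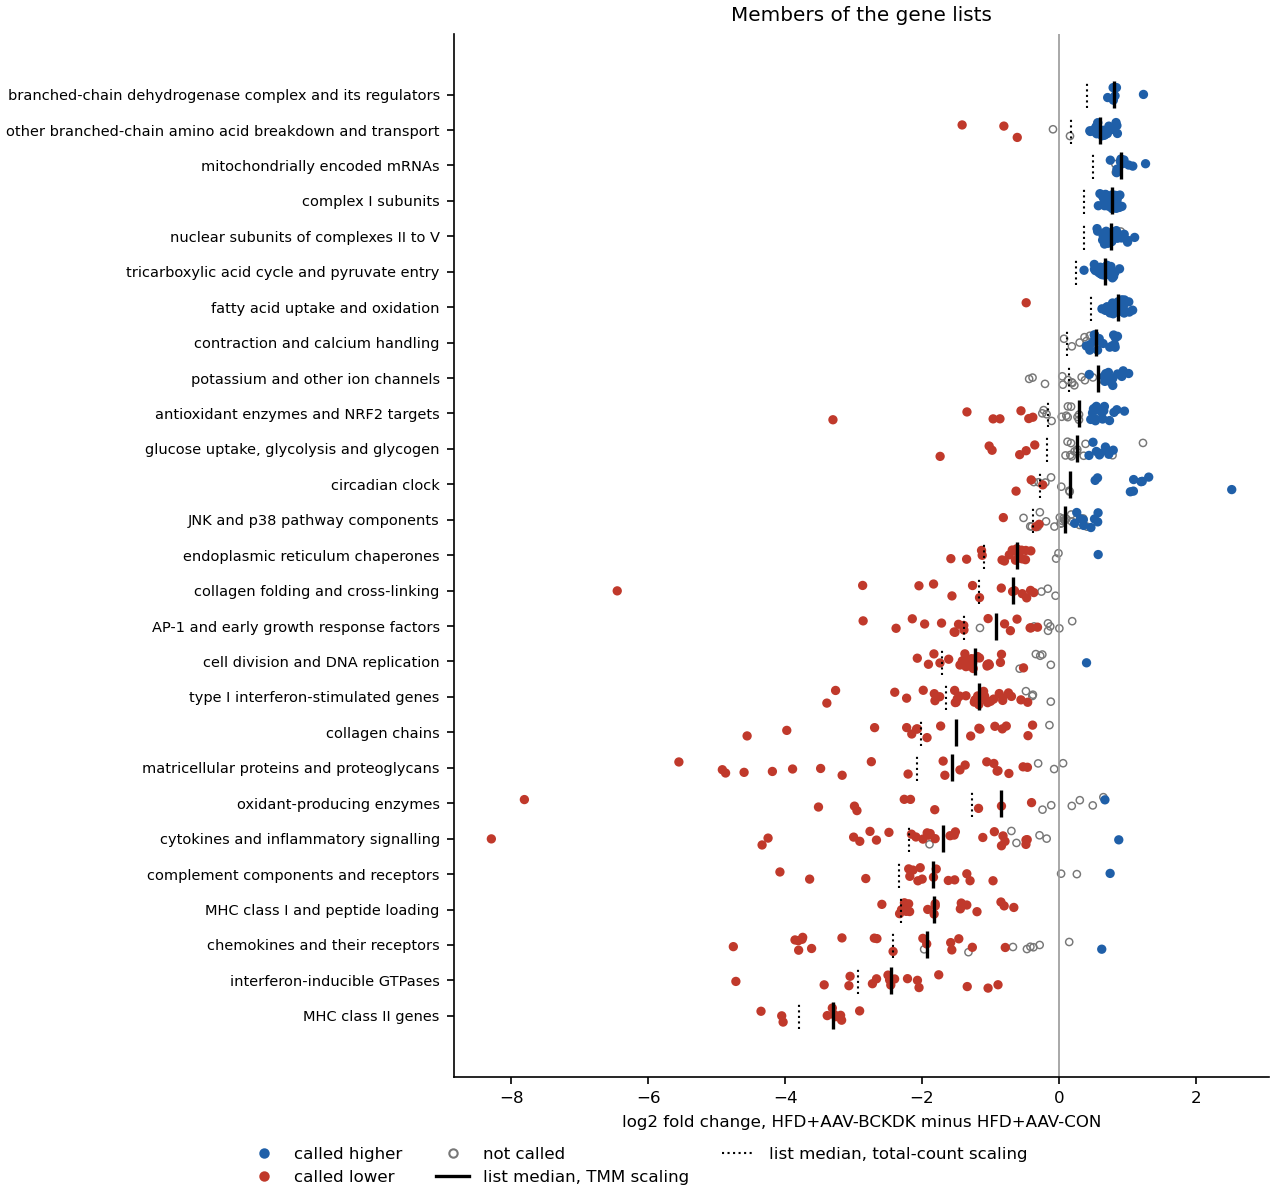
Log2 fold change of every tested member of 27 gene lists (x axis), HFD+AAV-BCKDK minus HFD+AAV-CON, 3 libraries each. Filled points passed the test (blue higher, red lower) and open points did not, a solid bar marks the list median with TMM scaling and a dotted bar that with total-count scaling. Oxidative lists sit within about 1 log2 unit above 0 and immune and matrix lists extend far to the left. The 2 leftmost points, Il6 and Alox15, had no count in HFD+AAV-BCKDK, so their position is set by the prior count of the fit.

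Bckdk, the gene the vector is named for, was higher in every HFD+AAV-BCKDK library than in any control-vector library of either diet. It lies on mm10 chr7:127904082-127910221, plus strand (ENSMUSG00000030802). Its level was 111, 126 and 119.9 CPM in HFD+AAV-BCKDK, 37.1, 65.0 and 49.4 CPM in HFD+AAV-CON and 78.6, 70.3 and 70.6 CPM in ND+AAV-CON. The rise was 1.24 (SE 0.17, adjusted p = 0.0016, and 0.01 without replicate 3). It was 0.82 with total-count scaling. Across all 14160 genes, 496 (3.50%) were called with every HFD+AAV-BCKDK library above all 6 control-vector libraries. Transcripts of the vector and of the chromosomal gene cannot be told apart in these counts.

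The other 5 members of the dehydrogenase group rose with it, by 0.71 to 0.84 on the log2 scale. Bckdhb, Dbt and Ppm1k stayed under every ND+AAV-CON library, and Bckdha and Dld overlapped that group. Bckdha, the E1 alpha subunit that the kinase phosphorylates, was at 249.6, 229 and 207 CPM in HFD+AAV-BCKDK and 81.5, 181 and 121 CPM in HFD+AAV-CON, a rise of 0.84 (SE 0.23, adjusted p = 0.021, and 0.067 without replicate 3). Exons of Bckdha share 61.7% of their bases with B3gnt8 in the annotation, so its counts are uncertain. Bckdhb, the E1 beta subunit, was at 31.8, 32.2 and 31.3 CPM against 11.0, 27.1 and 17.0 CPM and rose by 0.80 (SE 0.26, adjusted p = 0.035, and 0.097 without replicate 3). Within HFD+AAV-CON, replicate 2 was the nearest to the vector group for both subunits and replicate 1 the farthest. Dbt, the E2 transacylase core, rose by 0.79 (SE 0.14), from 20.3, 30.6 and 25.8 CPM in HFD+AAV-CON to 47.3, 42.5 and 42.9 CPM (adjusted p = 0.0035, and 0.016). Dld, the E3 subunit shared with the pyruvate and 2-oxoglutarate dehydrogenases, rose by 0.71 (SE 0.16), from 206, 337 and 268 to 486, 426 and 417 CPM (adjusted p = 0.011, and 0.039). Ppm1k rose by 0.82 (SE 0.17), from 21.0, 36.9 and 27.4 to 47.4, 50.8 and 52.3 CPM (adjusted p = 0.0068, and 0.028), and stood at 92.9, 86.0 and 84.8 CPM in ND+AAV-CON. Kinase and phosphatase thus both rose, and the kinase rise was the larger value. All 6 members were called (4 without replicate 3, where Bckdha and Bckdhb missed the threshold), and the median was 0.81, or 0.40 with total-count scaling.

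**Figure D2:**
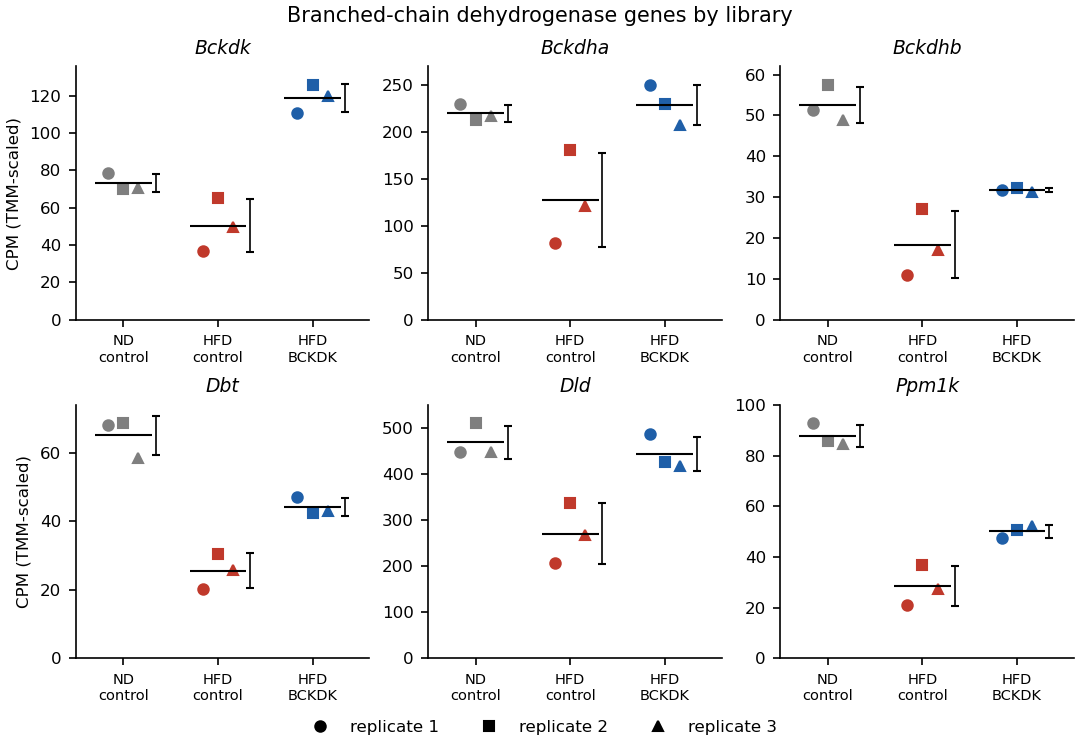
CPM (TMM-scaled, y axis from 0) of the kinase, the complex subunits and the phosphatase in the 9 libraries by group. Symbols mark replicate numbers, lines group means and bars SD (n = 3). The 3 Bckdk values of HFD+AAV-BCKDK, 111 to 126 CPM, lie above all others, while Bckdhb, Dbt and Ppm1k of that group lie between the other groups.

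Downstream of the dehydrogenase, most genes of branched-chain amino acid breakdown rose, whereas the transporter subunits Slc3a2 and Slc7a5 and the transaminase Bcat1 fell. Of 26 further members, 20 rose and 3 fell, with a median of 0.60. Acadsb, which oxidizes the isoleucine-derived acyl-CoA, was at 128, 132 and 127 CPM against 71.9, 97.5 and 80.9 CPM and rose by 0.63 (SE 0.11, adjusted p = 0.0037, and 0.018 without replicate 3). The valine enzymes Acad8 and Hibch rose by 0.52 (SE 0.11) and 0.55 (SE 0.11). The groups did not overlap for these 3 genes, as for 51.2% of all genes tested (24.0% higher and 27.3% lower). Slc3a2, the heavy chain of the L-type amino acid transporter, fell from 64.2, 58.3 and 62.3 CPM to 37.6, 32.9 and 35.3 CPM, by 0.80 (SE 0.094, adjusted p = 0.0013, and 0.0079). Its partner Slc7a5 fell by 0.61 (SE 0.18, adjusted p = 0.026, and 0.038). Bcat1, the cytosolic transaminase, fell by 1.41 (SE 0.37, adjusted p = 0.018) and missed the threshold without replicate 3 (adjusted p = 0.069). Without replicate 3, 7 members rose and 2 fell, and the median was 0.62. With total-count scaling 6 rose and 4 fell.

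Subunits of the respiratory chain were higher as a family, each by a moderate amount. Of 36 complex I subunits 34 rose (median 0.77), of 36 nuclear subunits of complexes II to V 33 rose (median 0.76), and of 13 mitochondrially encoded mRNAs 11 rose (median 0.91). None of these members fell. The core complex I subunit Ndufs1 was at 608, 623 and 584 CPM in HFD+AAV-BCKDK and 265, 471 and 358 CPM in HFD+AAV-CON, a rise of 0.73 (SE 0.18, adjusted p = 0.013, and 0.045 without replicate 3). Cox7c of cytochrome oxidase was at 406, 349 and 311 CPM against 123, 254 and 174 CPM and rose by 0.95 (SE 0.23, adjusted p = 0.013, and 0.049). The mitochondrial transcript mt-Nd3 was at 3388, 3289.8 and 2676 CPM against 753, 1936 and 1200.0 CPM and rose by 1.27 (SE 0.30, adjusted p = 0.012, and 0.045). Each vector library was above each HFD+AAV-CON library for these genes, and replicate 2 was the nearest of that group. The heart isoform Cox7a1 (1.11, SE 0.33) and the ATP synthase subunit Atp5e (1.01, SE 0.28) were among the 5 most abundant genes that rose at least 2-fold, and both missed the threshold without replicate 3 (adjusted p = 0.09 and 0.071). Sdha and Sdhb, the succinate dehydrogenase flavoprotein and iron-sulfur subunits, rose by 0.76 (SE 0.20) and 0.78 (SE 0.20) and likewise missed it (adjusted p = 0.062 and 0.057).

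How many of these rises were called depended on the library left out. Without replicate 3 the called members numbered 6 for complex I, 1 for complexes II to V (Cox7c) and 2 for the mitochondrial mRNAs (mt-Nd3 and mt-Nd6). Without HFD+AAV-BCKDK replicate 1 they numbered 5, 1 and 4, and without HFD+AAV-BCKDK replicate 2 they numbered 8, 4 and 3. Leaving out HFD+AAV-CON replicate 2, the library nearest to the vector group, removed none. The medians moved little, to 0.75, 0.73 and 0.90 without replicate 3. That library lay between its group mates for 64.2% of genes, so leaving it out could shift the medians little. With total-count scaling the medians were 0.36, 0.36 and 0.50, still above 0. The group difference in the mitochondrially encoded share of counts was 12.9 percentage points. It was 9.46 without HFD+AAV-CON replicate 1 and 16.4 without HFD+AAV-CON replicate 2. Summed over 16 cardiomyocyte markers the level was 46789 to 52415 CPM in HFD+AAV-BCKDK and 23959 to 42978 CPM in HFD+AAV-CON. 10 of these markers rose, none fell, and 1 (Gata4, which turned to -0.13 with total-count scaling) was called without replicate 3. All 6 tested erythroid markers rose too, with sums of 973 to 1569 CPM against 460.4 to 903 CPM. Of these, 1 was called without replicate 3, none without HFD+AAV-BCKDK replicate 1 and 3 with total-count scaling. The part of cardiomyocyte or blood content in the mitochondrial rises was not tested.

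Fuel-oxidizing enzymes followed the same pattern. All 22 genes of pyruvate entry and the tricarboxylic acid cycle rose, with a median of 0.67 (5 without replicate 3, 11 with total-count scaling). Pdha1, the E1 alpha subunit of pyruvate dehydrogenase, was at 1114, 1094 and 1066 CPM against 502, 809.6 and 640.1 CPM (a rise of 0.75, SE 0.16, adjusted p = 0.0077, and 0.031). Exons of Pdha1 share 16.1% of their bases with another gene. Of 28 genes of fatty acid uptake and oxidation 27 rose, with a median of 0.87 (8 rose without replicate 3, 21 with total-count scaling). Ech1, a dienoyl-CoA isomerase, was at 1633, 1604 and 1521 CPM against 344, 1143 and 653 CPM and rose by 1.15 (SE 0.34, adjusted p = 0.026). It missed the threshold without replicate 3 (adjusted p = 0.08). The control values spread more than 3-fold, HFD+AAV-CON replicate 2 lay within the ND+AAV-CON values of 1079, 1182 and 1155 CPM, and the vector group above them. The thiolase Acaa2 (1.03, SE 0.31) and the dienoyl-CoA reductase Decr1 (1.02, SE 0.25) behaved alike, with adjusted p of 0.081 and 0.051 without replicate 3. The fatty acid importer Cd36 rose by 0.80 (SE 0.18) and the carnitine transporter Slc22a5 by 0.70 (SE 0.12), and both kept their call (adjusted p = 0.037 and 0.016).

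The exception in the fatty acid list was Cpt1a, the liver-type carnitine palmitoyltransferase, which fell by 0.48 (SE 0.095), from 59.9, 49.8 and 55.6 to 38.9, 36.1 and 43.8 CPM (adjusted p = 0.0059, and 0.03 without replicate 3). The muscle-type Cpt1b rose by 0.68 (SE 0.17, adjusted p = 0.015, not called without replicate 3), a value chosen for this contrast after it was seen. Uncoupling proteins moved in opposite directions. Ucp3, the muscle form, was at 26.7, 49.3 and 57.6 CPM in HFD+AAV-BCKDK, 9.16, 23.2 and 14.5 CPM in HFD+AAV-CON and 137, 135 and 116 CPM in ND+AAV-CON. It rose by 1.52 (SE 0.34, adjusted p = 0.0097, and 0.039), and every vector library still lay under every normal-diet library. Ucp2, which is abundant in immune cells, fell from 368, 239.9 and 299.7 to 87.1, 108 and 112 CPM, by 1.56 (SE 0.22, adjusted p = 0.0016, and 0.0091). Among 19 PPAR-alpha targets and uncoupling genes 11 rose and 3 fell (4 and 2 without replicate 3). Of 24 genes of mitochondrial dynamics and mitophagy 17 rose and none fell (median 0.47). Without replicate 3, 8 rose, and with total-count scaling 2 rose and 2 fell (median 0.04). The 8 included the mitochondrial transcription factor Tfam (0.47, SE 0.092), the fission receptor Mff (0.48, SE 0.10) and the mitophagy receptor Bnip3 (0.76, SE 0.17).

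Genes of glucose use changed in both directions. Of 27 members 9 rose and 6 fell, beside 17.3% and 20.9% of all genes. The median of 0.27 turned to -0.17 with total-count scaling, under which 1 rose and 10 fell, beside 2.81% and 48.5% of all genes. The 6 members that fell with TMM scaling were Pfkfb3, Slc2a1, Pfkp, Eno1, Hk1 and Pgam1. Pfkfb3, which makes the activator of phosphofructokinase, was at 8.33, 9.19 and 10.2 CPM against 37.5, 22.7 and 32.0 CPM and fell by 1.74 (SE 0.19, adjusted p = 0.0012, and 0.0079). The basal glucose transporter Slc2a1 was at 8.87, 10.2 and 7.79 CPM against 20.8, 15.6 and 18.0 CPM and fell by 1.02 (SE 0.13, adjusted p = 0.0014, and 0.0086). The platelet-type phosphofructokinase Pfkp fell by 0.98 (SE 0.16). The muscle-type genes Slc2a4, Pfkm, Eno3 and Pgam2 rose by 0.73, 0.60, 0.69 and 0.55 (adjusted p = 0.03, 0.04, 0.028 and 0.038), and these 4, chosen after their values were seen, were not called without replicate 3. Without replicate 3, 5 falls and 2 rises remained called, the latter being Gbe1 and Pdk1. In lipid synthesis 4 genes rose and 6 of 20 fell, beside 17.3% and 20.9% of all genes. Without replicate 3 the counts were 0 and 3, and with total-count scaling 2 and 12.

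Most oxidant-producing enzymes fell, while antioxidant genes changed in both directions. Of 17 oxidant-producing enzymes 10 fell and 1 rose. The phagocyte NADPH oxidase led these falls. Its catalytic subunit Cybb was at 7.17, 13.2 and 11.3 CPM in HFD+AAV-BCKDK and 103, 58.9 and 82.2 CPM in HFD+AAV-CON, a fall of 2.95 (SE 0.34, adjusted p = 0.0012, and 0.0079). The cytosolic activators Ncf1 and Ncf4 fell by 2.26 (SE 0.23) and 2.99 (SE 0.41). Vector libraries overlapped the ND+AAV-CON range for these 3 subunits. Maob, the mitochondrial amine oxidase, was the exception and rose by 0.67 (SE 0.22, adjusted p = 0.039, and 0.092 without replicate 3, no longer called). Nox4, given after its value was seen, was at 1.91, 1.48 and 1.5 CPM against 11.8, 1.56 and 8.49 CPM, with HFD+AAV-CON replicate 2 at the level of the vector group (2.17 lower, SE 0.57, adjusted p = 0.018, not called without replicate 3). Among 35 antioxidant and NRF2-target genes 16 rose and 7 fell, beside 17.3% and 20.9% of all genes. The median of 0.29 turned to -0.15 with total-count scaling, under which 4 rose and 13 fell, beside 2.81% and 48.5% of all genes. Gclm, the regulatory subunit of glutathione synthesis, rose by 0.47 (SE 0.076, adjusted p = 0.0026, and 0.014). Hmox1, the inducible heme oxygenase, fell by 1.34 (SE 0.098, adjusted p = 0.00061, and 0.0055). It was at 17.5, 17.5 and 14.1 CPM in HFD+AAV-BCKDK, 42.2, 38.6 and 43.7 CPM in HFD+AAV-CON and 48.3, 46.7 and 48.1 CPM in ND+AAV-CON, so the vector group lay under both control-vector groups. Gpx1 and the extracellular Sod3 fell by 0.96 (SE 0.12) and 0.86 (SE 0.15), and Nfe2l2, which encodes NRF2, by 0.38 (SE 0.083). Without replicate 3, 5 members rose and 6 fell.

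Interferon-responsive genes fell together. Of 36 type I interferon-stimulated genes 32 fell and none rose (median -1.16), and all 17 interferon-inducible GTPases fell (median -2.46). The antiviral effector Ifit1 was at 8.5, 8.10 and 10.1 CPM in HFD+AAV-BCKDK, 34.7, 26.0 and 33.6 CPM in HFD+AAV-CON and 8.99, 9.85 and 9.60 CPM in ND+AAV-CON. It fell by 1.82 (SE 0.13, adjusted p = 0.00061, and 0.0055 without replicate 3). The guanylate-binding GTPase Gbp2, which attacks vacuoles of intracellular microbes, was at 35, 48.5 and 47.9 CPM against 279.8, 180.2 and 233 CPM and fell by 2.40 (SE 0.32, adjusted p = 0.0015, and 0.0082). Values of the vector group overlapped those of the normal diet for both genes and lay more than 2-fold under the lowest HFD+AAV-CON library. Herc6, Parp14 and Rtp4 fell by 1.98 (SE 0.21), 1.45 (SE 0.15) and 1.0 (SE 0.11). Without replicate 3, 30 interferon-stimulated genes and all 17 GTPases were still called lower, and with total-count scaling 36 and 17 were.

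The 3 windows before the start sites of such genes printed here hold the interferon-stimulated response element (ISRE), a site bound by interferon regulatory factors. They are the 250 bases before the RefSeq start, build GRCm38.p6, 5′ to 3′ on the strand of the gene, of the 3 called members of the interferon-stimulated list with the smallest p among those with a match. Capitals mark matches on either strand to GAAA, any 2 bases and GAAA again, and overlapping matches run together.
Ifit1 (chr19:34640639-34640888, plus strand): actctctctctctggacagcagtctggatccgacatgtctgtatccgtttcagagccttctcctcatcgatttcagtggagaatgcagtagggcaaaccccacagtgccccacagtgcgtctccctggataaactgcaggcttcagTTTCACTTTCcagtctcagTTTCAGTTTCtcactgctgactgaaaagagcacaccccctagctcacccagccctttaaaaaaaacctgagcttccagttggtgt
Oas3 (chr5:120777660-120777909, minus strand): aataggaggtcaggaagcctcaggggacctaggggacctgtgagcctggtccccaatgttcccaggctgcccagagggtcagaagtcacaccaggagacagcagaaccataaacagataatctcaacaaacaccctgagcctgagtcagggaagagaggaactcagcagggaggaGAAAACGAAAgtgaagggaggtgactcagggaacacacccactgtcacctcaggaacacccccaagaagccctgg
Isg15 (chr4:156200819-156201068, minus strand): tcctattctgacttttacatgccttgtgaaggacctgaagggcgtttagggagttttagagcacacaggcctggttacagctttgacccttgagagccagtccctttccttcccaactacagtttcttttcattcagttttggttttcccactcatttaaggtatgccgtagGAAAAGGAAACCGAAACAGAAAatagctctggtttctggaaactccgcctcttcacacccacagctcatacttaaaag
The window of Ifit1 holds 2 matches, the nearer 85 bases before the start, that of Oas3 holds 1, 75 bases before it, and that of Isg15 holds 3 overlapping ones, the nearest 66 bases before it. Oas3, an RNA-sensing oligoadenylate synthetase, was at 0.614, 0.919 and 1.38 CPM against 14.2, 5.82 and 11.0 CPM and fell by 3.39 (SE 0.39, adjusted p = 0.0012). Isg15, a ubiquitin-like modifier, was at 6.31, 8.34 and 7.24 CPM against 23.7, 17.1 and 20.3 CPM and fell by 1.48 (SE 0.17, adjusted p = 0.0012). A window matched by symbol was found for 25 of 36 interferon-stimulated genes, and 10 of these (40%) held the element. It was held by 9 of 10 GTPase genes with a window (90%). Over all genes with a window and tested, 3.43% held it. The share was 6.19% of genes that fell, 9.19% of those that fell at least 2-fold, 2.19% of genes that rose and 2.83% of genes not called. Of all 32851 RefSeq windows 2.98% held it. A match describes letters and not binding, and a window without one says nothing of the factor.

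Antigen presentation genes fell without exception. All 19 genes of MHC class I and peptide loading and all 10 MHC class II genes were called lower, with medians of -1.82 and -3.30. The same 19 and 10 were called without replicate 3 and when any other high-fat-diet library was left out. Cd74, the class II invariant chain, was at 127, 316 and 292 CPM in HFD+AAV-BCKDK and 3225, 1748 and 2701 CPM in HFD+AAV-CON, a fall of 3.38 (SE 0.54, adjusted p = 0.0025, and 0.011). ND+AAV-CON hearts stood at 289.9, 159 and 637 CPM, and replicate 3 of that group was the highest of the 6 libraries outside HFD+AAV-CON. Ciita, the master activator of class II transcription, fell by 4.35 (SE 0.54), from 35.1, 17.9 and 28.5 to 0.922, 1.38 and 1.64 CPM. Among class I genes, H2-D1 was at 334, 419 and 441 CPM against 1726, 1083 and 1414 CPM (a fall of 1.82, SE 0.24, adjusted p = 0.0014, and 0.0082). B2m, the light chain of all class I molecules, fell by 1.81 (SE 0.26), from 2594, 1602 and 2315 to 525, 678 and 658 CPM. The immunoproteasome subunit Psmb10 and the loading factor Tapbp fell by 1.43 (SE 0.18) and 1.20 (SE 0.15). Reads of near-identical class I genes such as H2-Q4 (-1.92) may be split between copies.

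Inflammatory mediators fell as well. Of 32 cytokine and signalling genes 26 fell and 1 rose, of 27 chemokines and receptors 18 fell and 1 rose, and of 19 complement genes 16 fell and 1 rose. The medians were -1.70, -1.93 and -1.83. Il6 had no count in the 3 HFD+AAV-BCKDK libraries and 69, 31 and 43 counts in HFD+AAV-CON, which makes it at least 33.6-fold lower against a floor of 3 counts over the group. The cytokine median was the same, -1.70, with Il6 set at that bound. Cxcl9, the interferon-gamma-induced T cell attractant, was at 7.47, 17.3 and 18.3 CPM against 258, 137 and 209 CPM and fell by 3.81 (SE 0.52, adjusted p = 0.0015, and 0.0082). The prostaglandin synthase Ptgs2 fell by 2.76 (SE 0.33) and the receptor Tlr2 by 2.48 (SE 0.32). C1qb of the classical complement pathway was at 59.3, 78.0 and 72.5 CPM against 378, 236 and 305 CPM and fell by 2.13 (SE 0.23, adjusted p = 0.0012, and 0.0079). C1qa and C1qc fell by 2.03 and 2.0 (SE 0.22 and 0.20). The 3 members that rose were Cxcl12, a stromal and endothelial chemokine (0.63, SE 0.11), Il15, a cytokine of muscle and myeloid cells (0.88, SE 0.21), and Cd59a, which blocks the complement pore (0.75, SE 0.18). All 3 kept their call without replicate 3, where 19, 11 and 14 members of the lists were lower.

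Markers of leukocytes moved with all these genes. Of 21 macrophage and monocyte markers 17 fell and 1 rose, and their summed level was 572 to 716 CPM in HFD+AAV-BCKDK against 1689.9 to 2769 CPM in HFD+AAV-CON. Of 14 T and NK cell markers 13 fell, with sums of 3.86 to 19.1 CPM against 153 to 273 CPM. B and plasma cell markers fell in 5 of 8 cases (3 without replicate 3), with sums of 2.22 to 6.20 CPM against 83.1 to 250.2 CPM, and Pax5 had no count in HFD+AAV-BCKDK. Normal-diet hearts held 697 to 922, 3.64 to 63.1 and 3.19 to 201 CPM in these 3 lists, with a wide spread for lymphocyte genes. Lyz2, the myeloid lysozyme, was at 284, 366 and 375 CPM against 1711, 1034 and 1386 CPM and fell by 2.01 (SE 0.21, adjusted p = 0.0012, and 0.0079). The macrophage growth factor receptor Csf1r, whose exons share 15.1% of bases with another gene, fell by 1.28 (SE 0.14) and Cd68 by 1.89 (SE 0.22). The scavenger receptor Cd163 was the 1 macrophage marker that rose, by 1.02 (SE 0.30, adjusted p = 0.027, and 0.078 without replicate 3, no longer called). The killer cell granule gene Nkg7 was at 0.307, 1.80 and 1.19 CPM against 29.4, 16.1 and 28.6 CPM and fell by 4.49 (SE 0.92, adjusted p = 0.0068, and 0.025). Neutrophil markers were near the limit of detection, and 1 of 8, Csf3r, fell. How much of the interferon, antigen presentation and inflammatory falls goes with leukocyte content was not tested.

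Genes of the extracellular matrix fell in the vector group, and again HFD+AAV-CON replicate 2 lay nearest to it. Of 18 collagen chains 17 fell (median -1.51), of 17 collagen-processing genes 14 fell (median -0.68), and of 24 matricellular proteins and proteoglycans 21 fell (median -1.56). No member rose. Col1a1, the main fibrillar collagen chain, was at 57.2, 71.3 and 69.0 CPM in HFD+AAV-BCKDK and 349, 141 and 261 CPM in HFD+AAV-CON, a fall of 1.93 (SE 0.27, adjusted p = 0.0016, and 0.0094). Postn, made by activated fibroblasts, was at 44.2, 81.2 and 61.0 CPM against 1066, 239 and 776 CPM and fell by 3.48 (SE 0.51, adjusted p = 0.0018, and 0.0095). The adhesion-modulating protein Thbs1 was at 40.7, 24.2 and 25.8 CPM against 228, 174 and 204 CPM and fell by 2.74 (SE 0.20, adjusted p = 0.00061, and 0.0055). Thbs1 was even across the control group, while Col1a1 and Postn differed more than 2-fold between its replicates 1 and 2. Fibronectin (Fn1) fell by 2.20 (SE 0.30), the latent TGF-beta binding protein Ltbp2 by 4.60 (SE 0.62), and the collagen cross-linking oxidase Lox by 2.87 (SE 0.45). The basement membrane chains Col4a1 and Col4a2, given after their values were seen, fell by 0.45 and 0.38. Without replicate 3, 16, 10 and 17 members were called lower.

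Enzymes that cut matrix fell alongside the matrix itself. Of 18 metalloproteinases and inhibitors 12 fell and none rose. Timp1, the inducible inhibitor, was at 1.67, 5.59 and 2.80 CPM against 47.0, 19.4 and 34.9 CPM and fell by 3.34 (SE 0.43, adjusted p = 0.0013, and 0.0079), and Mmp2 and Mmp14 fell by 1.34 (SE 0.23) and 1.53 (SE 0.24). In the TGF-beta list 9 of 20 fell, including the ligand Tgfb1 (-0.70, SE 0.11) and the receptor Tgfbr1 (-1.46, SE 0.26). The co-receptor Tgfbr3 was the 1 that rose (0.48, SE 0.095). Without replicate 3 the counts were 9 and 8 lower. Of 16 fibroblast and myofibroblast markers 12 fell (7 without replicate 3), and their summed level was 2758 to 3072 CPM against 4102 to 6759.5 CPM. Pdgfra, a marker of fibroblasts in general, fell by 0.28, and Tcf21 stood at -0.06 without passing the test, both given after their values were seen. Endothelial markers went the other way, with 9 of 16 higher (5 without replicate 3, 2 with total-count scaling), led by the VEGF receptor Kdr at 190.3, 180.0 and 226 CPM against 85.9, 115 and 98.0 CPM (1.0, SE 0.14, adjusted p = 0.0016, and 0.0099). The part of fibroblast content in the matrix falls was not tested.

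**Figure D3:**
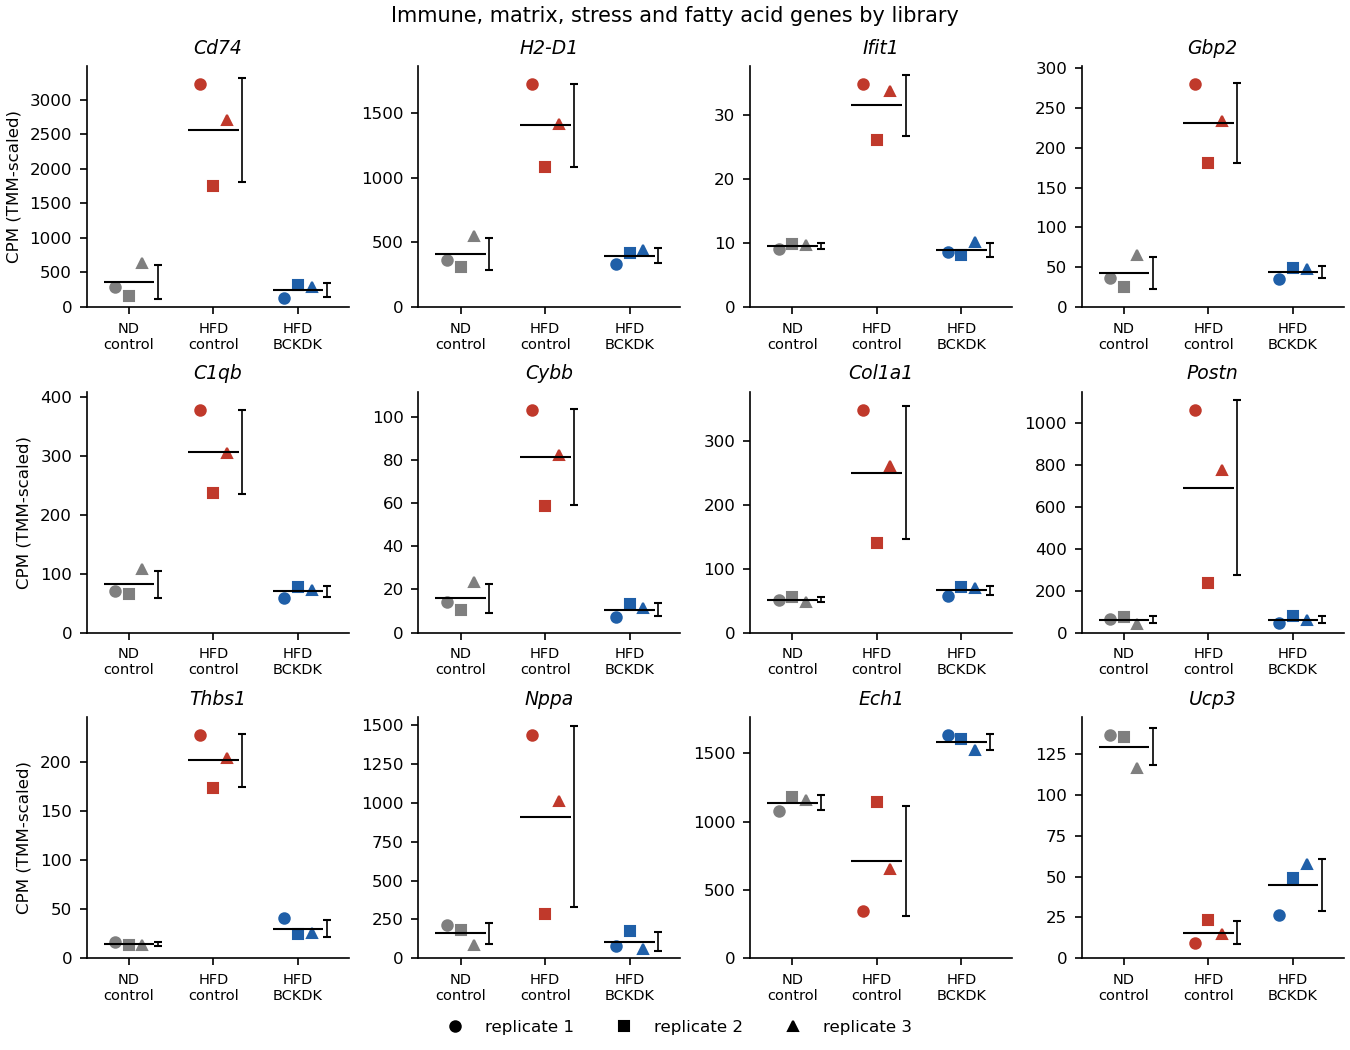
CPM (TMM-scaled, y axes from 0) of 12 genes in the 9 libraries by group, with lines at group means and bars of 1 SD (n = 3). For the 10 immune, matrix and stress genes the 3 HFD+AAV-BCKDK values lie under all HFD+AAV-CON values. Within HFD+AAV-CON, replicate 2 (square) is the lowest for these genes. For Ech1 and Ucp3 the order is turned and replicate 2 is the highest within HFD+AAV-CON.

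Cardiac stress and fetal genes, not all of them specific to cardiomyocytes, fell in part. Of 22 members 7 fell, 2 rose and 13 were not called (6 fell and 0 rose without replicate 3). Over all 14160 genes 20.9% fell, 17.3% rose and 8750 were not called (13.0% fell and 6.87% rose without replicate 3). Nppa, the atrial natriuretic peptide, was at 77.3, 175 and 61.8 CPM against 1437, 284 and 1012 CPM and fell by 3.12 (SE 0.63, adjusted p = 0.0064, and 0.023). Ankrd1, a titin-associated stretch-responsive protein, was at 952, 1413 and 882 CPM against 3964, 1501 and 3035 CPM and fell by 1.39 (SE 0.33, adjusted p = 0.012, and 0.045). In both genes HFD+AAV-CON replicate 2 lay less than 2-fold above the highest vector library. The galectin Lgals3 and Ctgf, also a fibroblast product, fell by 3.46 (SE 0.44) and 1.67 (SE 0.29), and in which cells was not tested. Nppb and Myh7, given after their values were seen, stood at -0.60 (SE 0.27, adjusted p = 0.1) and -0.54 (SE 0.20, adjusted p = 0.061) and did not pass. The muscle LIM proteins Csrp3 (0.51, SE 0.12) and Fhl1 (0.28, SE 0.10) rose, neither without replicate 3 (adjusted p = 0.0505 and 0.097), and Fhl1 turned to -0.17 with total-count scaling. Atrial tissue markers overlapped with this list through Nppa, and 2 of 7 fell (Nppa and Dkk3) while 2 rose. Summed over these markers, Nppa included, the level was 459 to 615 CPM in HFD+AAV-BCKDK and 694 to 2020 CPM in HFD+AAV-CON. The part of atrial tissue in the Nppa fall was not tested.

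Contractile and channel genes were moderately higher. Of 25 contraction and calcium genes 17 rose and none fell (median 0.55, and 0.12 with total-count scaling), and of 26 ion channel genes 13 rose and none fell (median 0.57, and 0.15). Pln, the inhibitor of the calcium pump, was at 5617, 5685 and 5481 CPM against 2162, 4098 and 3011 CPM and rose by 0.86 (SE 0.21, adjusted p = 0.015, and 0.051 without replicate 3, just short of the threshold). Triadin (Trdn), of the calcium release complex, rose by 0.78 (SE 0.14, adjusted p = 0.004, and 0.019). The inward rectifier channel Kcnj2 was at 33.5, 33.7 and 40.8 CPM against 11.3, 25.8 and 16.4 CPM and rose by 1.02 (SE 0.24, adjusted p = 0.012, and 0.046). Without replicate 3, 4 contraction genes (Trdn, Asph, Myoz2 and Myom1, the last at -0.04 with total-count scaling) and 3 channel genes, Kcnj2 and Kcnd3 among them, were called. Edn3, an endothelin ligand, rose by 1.46 (SE 0.24), from 3.87, 6.35 and 4.34 to 10.5, 17.7 and 11.7 CPM, above the 1.86, 2.11 and 1.62 CPM of ND+AAV-CON. The converting enzyme Ace fell by 0.74 (SE 0.14) and the receptor kinase Grk2 by 0.48 (SE 0.12), while the beta-1 adrenergic receptor Adrb1 rose by 0.77 (SE 0.19). Without replicate 3 only Ace of these 3 was called (adjusted p = 0.024, 0.06 and 0.053).

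Components of JNK and p38 signalling were measured at the mRNA level. Of 33 components 9 rose, 3 fell and 21 were not called. Over all 14160 genes 17.3% rose, 20.9% fell and 8750 were not called. The median of 0.09 turned to -0.38 with total-count scaling, under which 0 components rose and 16 fell. With that scaling 2.81% of all genes rose and 48.5% fell, and the all-gene median was -0.47. Mapk8 and Mapk14, which encode JNK1 and p38 alpha and were given after their values were seen, stood at 0.30 (SE 0.11, adjusted p = 0.058) and 0.05 (SE 0.077, adjusted p = 0.61). The upstream kinase Map3k20 was at 162, 173 and 141 CPM against 95.0, 119 and 105 CPM and rose by 0.57 (SE 0.11, adjusted p = 0.0059, and 0.025). Gadd45b, an inducible activator of the pathway, fell by 0.81 (SE 0.19). Without replicate 3, 5 rose and 1, Gadd45b, fell. Phosphorylation, by which these kinases act, was not measured. Of 24 immediate-early genes, mostly AP-1 and early growth response factors, 17 fell and none rose (13 without replicate 3). Junb was at 15.8, 18.3 and 19.2 CPM against 47.4, 43.3 and 48.8 CPM and fell by 1.39 (SE 0.17, adjusted p = 0.0013, and 0.0082). Egr2 was at 1.13, 3.78 and 1.21 CPM against 15.0, 14.3 and 14.4 CPM and fell by 2.86 (SE 0.40, adjusted p = 0.0016, and 0.0093). Atf3 and the orphan receptor Nr4a3 fell by 1.53 (SE 0.21) and 1.52 (SE 0.15). Jun itself, given after its value was seen, did not differ beyond its error at 0.01 (SE 0.16).

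Endoplasmic reticulum chaperones and cell division genes fell. Of 20 endoplasmic reticulum chaperones 17 fell and 1 rose, and 17 were called lower without replicate 3. Sdf2l1 was at 7.51, 7.0 and 8.64 CPM against 24.0, 16.8 and 18.2 CPM and fell by 1.35 (SE 0.16, adjusted p = 0.0013, and 0.0079), and Hyou1 and Pdia6 fell by 0.72 (SE 0.083) and 0.68 (SE 0.085). Vector levels of these 3 chaperones remained above the ND+AAV-CON ranges, which were 3.03 to 3.91, 18.5 to 20.9 and 59.9 to 66.8 CPM against 7.0 to 8.64, 30.7 to 33.9 and 88.5 to 96.3 CPM. Of 19 integrated stress response genes 11 fell and 2 rose (7 and 2 without replicate 3). The mitochondrial folate enzyme Mthfd2 fell by 1.29 (SE 0.18), from 18.5, 11.9 and 15.2 to 6.62, 6.01 and 6.10 CPM. Of 30 cell division genes 24 fell and 1 rose (21 and 0 without replicate 3). The proliferation marker Mki67 was at 4.85, 5.34 and 5.49 CPM against 22.6, 14.2 and 18.7 CPM and fell by 1.83 (SE 0.17, adjusted p = 0.0011, and 0.0075). Of 27 apoptosis and p53 genes 17 fell and 2 rose (12 and 1 without replicate 3), with Ccng1, a p53 target abundant in heart, higher by 0.63 (SE 0.13). Of 20 cytosolic heat shock chaperones 3 rose and 2 fell, and of 35 ribosomal proteins 3 rose and 1 fell. Over all genes 17.3% rose and 20.9% fell, and the median with total-count scaling was -0.47. Of 27 genes of insulin, IGF, mTOR and AMPK signalling 9 rose and 3 fell, with a median of 0.09 that turned to -0.37 with total-count scaling. Without replicate 3, 3 of these rose and 2 fell.

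Clock genes changed in both directions. Of 19 members 9 rose and 3 fell, beside 17.3% and 20.9% of all genes. Without replicate 3, 7 rose and 2 fell, beside 6.87% and 13.0% of all genes. The list median of 0.16 turned to -0.28 with total-count scaling, under which 6 rose and 7 fell, beside 2.81% and 48.5% of all genes. Dbp, a PAR bZIP factor driven directly by the clock, was at 11.0, 19.8 and 9.76 CPM in HFD+AAV-BCKDK, 1.64, 2.91 and 2.55 CPM in HFD+AAV-CON and 6.34, 5.75 and 5.18 CPM in ND+AAV-CON. It rose by 2.53 (SE 0.30, adjusted p = 0.0013, and 0.0079), the largest rise among genes the naming rule ranked. Nr1d1, the heme-binding repressor REV-ERB alpha, was at 73.0, 78.3 and 75.8 CPM, 26.1, 41.8 and 31.1 CPM and 20.3, 22.2 and 22.5 CPM in the same order and rose by 1.20 (SE 0.15, adjusted p = 0.0013, and 0.0082). Its paralog Nr1d2 was at 87.5, 96.9 and 87.7 CPM against 33.0, 44.8 and 39.3 CPM and 53, 48.8 and 49.0 CPM and rose by 1.22 (SE 0.11, adjusted p = 0.0011, and 0.0075). Dbp, Nr1d1 and Nr1d2 lay above all 6 control-vector libraries in each vector library. Exons of Dbp share 18% of their bases with Sphk2. The PAR bZIP relatives Tef and Hlf rose by 1.04 (SE 0.16) and 1.09 (SE 0.16), and the clock repressors Per3, Ciart and Cry2 by 1.09 (SE 0.26), 1.31 (SE 0.37) and 0.56 (SE 0.11). Those that fell were Arntl, the BMAL1 activator (-0.24, SE 0.083), Cry1 (-0.40, SE 0.083) and Nfil3, which binds the same sites as Dbp but represses (-0.63, SE 0.15). Arntl and Ciart were not called without replicate 3. The sources used here do not say at which hour each heart was taken, and its part in these differences was not tested. Hlf, Ciart, Per3 and Cry2 were chosen after their values were seen.

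**Figure D4:**
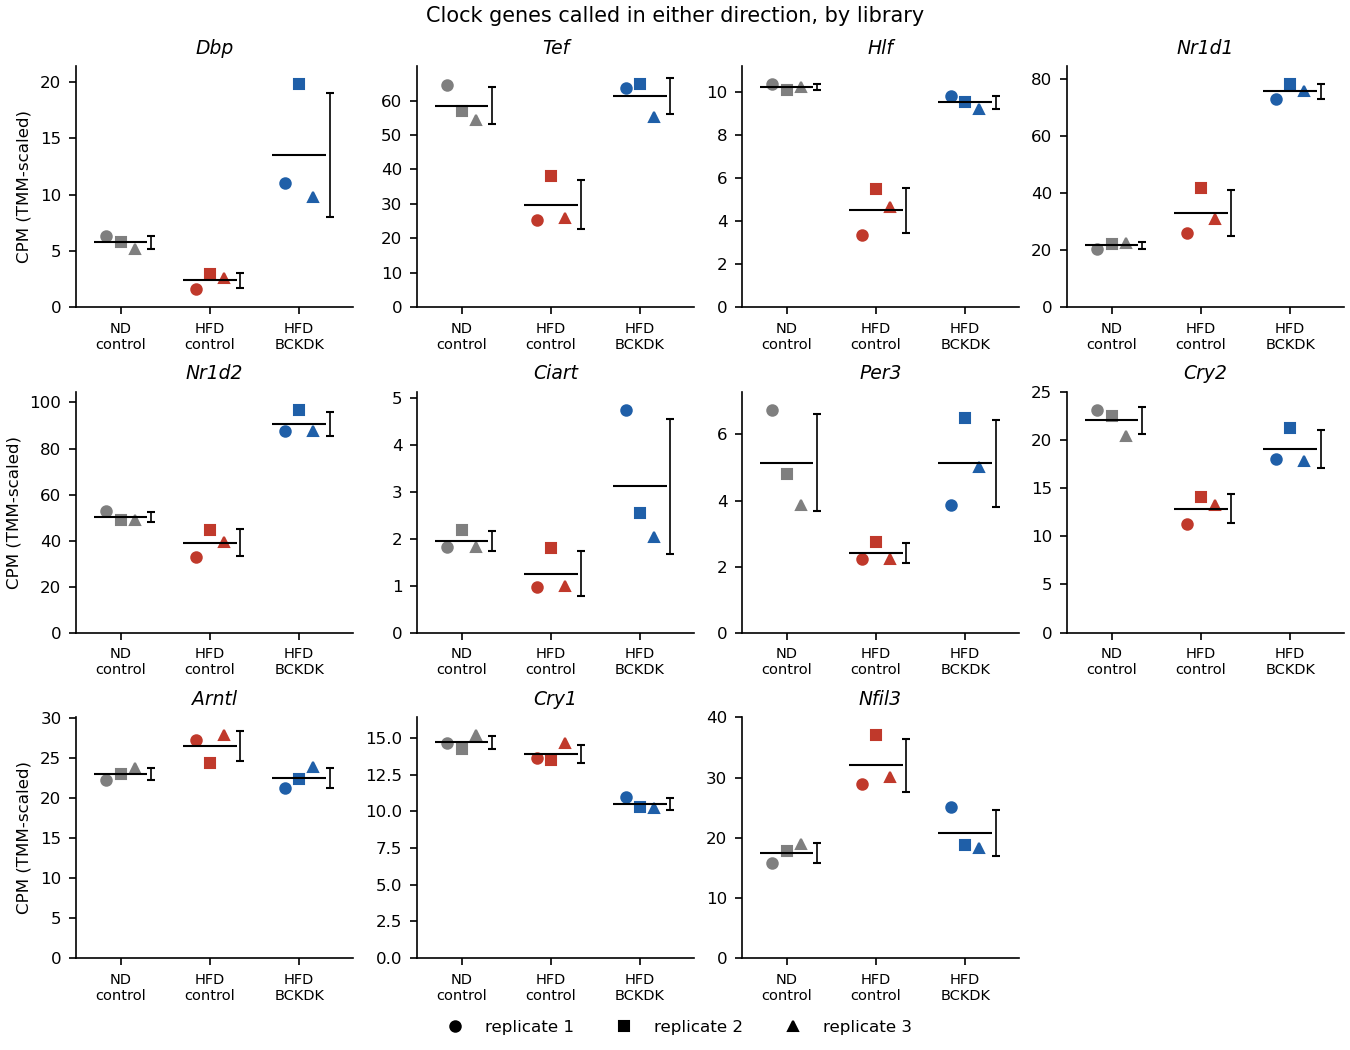
CPM (TMM-scaled, y axes from 0) of 11 clock genes that passed the test, in the 9 libraries, with lines at group means and bars of 1 SD (n = 3). In the first 8 panels HFD+AAV-BCKDK lies above HFD+AAV-CON and in the last 3, Arntl, Cry1 and Nfil3, below it.

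The window of Per3 is printed because it holds the D-box letters TTATGTAA, to which Dbp, Tef and Hlf can bind as activators and Nfil3 as a repressor. It was the only one of 16 clock windows with the letters on either strand (6.25%, against 0.57% of all tested genes with a window), and capitals mark the matches, 205 and 158 bases before the RefSeq start.
Per3 (chr4:151044666-151044915, minus strand): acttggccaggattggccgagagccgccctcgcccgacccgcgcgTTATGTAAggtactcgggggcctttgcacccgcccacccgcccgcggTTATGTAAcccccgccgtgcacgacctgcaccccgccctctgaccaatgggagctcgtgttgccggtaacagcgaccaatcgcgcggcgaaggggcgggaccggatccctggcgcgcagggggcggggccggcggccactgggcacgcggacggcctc
Per3 was at 3.86, 6.50 and 5.01 CPM in HFD+AAV-BCKDK and 2.23, 2.75 and 2.24 CPM in HFD+AAV-CON. The match is a description of letters and not of binding.

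The 10 genes that rose most under the naming rule were Dbp, Tbc1d16, Chrna2, Gpr22, Rasl10a, Arhgap20, Ucp3, Klra9, Adam1a and Mrgprh. Gpr22, an orphan receptor of heart muscle, was at 12.2, 20.6 and 16.7 CPM against 2.5, 7.78 and 5.53 CPM and rose by 1.66 (SE 0.37, adjusted p = 0.0093, and 0.033). The GTPase-activating protein Arhgap20 was at 29.6, 31.0 and 27.5 CPM against 6.42, 13.7 and 10.2 CPM and rose by 1.55 (SE 0.24, adjusted p = 0.0022, and 0.012). Chrna2, a nicotinic receptor subunit, rose by 1.73 (SE 0.45) and missed the threshold without replicate 3 (adjusted p = 0.063). Tbc1d16, a Rab GTPase-activating protein, was at 45.3, 52.1 and 46.8 CPM in the vector group and 3.19, 3.50 and 26.8 CPM in HFD+AAV-CON, so that replicate 3 alone was close to the 33.7, 35.7 and 36.8 CPM of ND+AAV-CON. Its rise of 2.11 (SE 0.68, adjusted p = 0.036) was called without replicate 3 (adjusted p = 4.4e-06) and lost in 10 of the other settings tried. Adam1a shares 63.7% of its exon bases with Tmem116, Mapkapk5 and Gm42878 and is uncertain.

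Those that fell most were Slpi, Eomes, Jchain, Gzmk, Fmod, Tigit, Coch, C1qtnf3, Gbp2b and Tnc, mostly genes of lymphocytes and of matrix. Tnc, a matrix protein of wound repair, was at 0.614, 2.83 and 1.83 CPM against 82.2, 20.2 and 56.6 CPM and fell by 4.92 (SE 0.62, adjusted p = 0.0013, and 0.0079). Eomes, a transcription factor of cytotoxic lymphocytes, had 0, 0 and 2 counts in HFD+AAV-BCKDK and 415, 139 and 242 in HFD+AAV-CON, a ratio of 281 with a 95% counting interval of 77.4 to 2321. The immune checkpoint receptor Tigit was at 0.0683, 0.318 and 0.617 CPM against 22, 10.1 and 14 CPM and fell by 5.41 (SE 1.04, adjusted p = 0.0052, and 0.019). Jchain, the joining chain of secreted antibodies, was at 0.478, 1.45 and 2.94 CPM against 225, 71.5 and 175 CPM, but ND+AAV-CON held 26.9, 0.648 and 187 CPM, so a single normal-diet library reached the high-fat-diet control level. Its fall of 6.53 (SE 1.58, adjusted p = 0.013) was lost with limma-voom and without HFD+AAV-BCKDK replicate 1 or 2. Slpi, Fmod and C1qtnf3, which varied several-fold between HFD+AAV-CON replicates 1 and 2, were also not called with limma-voom. The fitted folds of genes at or near 0 depend on the prior count of the fit.

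A set of 381 genes (2.69%) fell with every HFD+AAV-BCKDK library under all 6 control-vector libraries. By the smallest gap ranked largest, these were led by Angptl7, Hmox1, Wisp2, Lyz1, Aoah and Plcl2. Lyz1, a second lysozyme, was at 1.19, 3.32 and 2.71 CPM in HFD+AAV-BCKDK, 25.7, 14.1 and 19.7 CPM in HFD+AAV-CON and 6.07, 5.94 and 6.95 CPM in ND+AAV-CON, and fell by 3.04 (SE 0.33, adjusted p = 0.0012, and 0.0079). Aoah, which deacylates bacterial lipopolysaccharide, was at 0.717, 1.91 and 1.88 CPM with the vector, 15.8, 8.29 and 14.4 CPM in HFD+AAV-CON and 4.07, 3.29 and 3.94 CPM in ND+AAV-CON, and fell by 3.08 (SE 0.36, adjusted p = 0.0012, and 0.0079). The place of the vector group under normal-diet hearts for these 2 myeloid genes follows from the rule that chose them. Summed over the macrophage and monocyte list, the vector group overlapped the normal diet, at 572 to 716 CPM against 697 to 922 CPM. Wisp2, a secreted matricellular protein, was at 1.64, 2.93 and 2.61 CPM with the vector, 58.2, 6.22 and 42.4 CPM in HFD+AAV-CON and 7.22, 10.1 and 5.71 CPM in ND+AAV-CON. Angptl7, a secreted angiopoietin-like protein, was at 1.09, 0.919 and 0.451 CPM with the vector, 23.2, 2.61 and 14.3 CPM in HFD+AAV-CON and 3.85, 5.29 and 4.90 CPM in ND+AAV-CON. For both, HFD+AAV-CON replicate 2 was within the range of the normal diet or under it, and the call was lost with limma-voom. On the upper side, the corresponding set was led by Bckdk, Dbp, Nr1d1, Nr1d2, Edn3 and Tpbgl.

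The plot of calls kept with 1 library left out sets lists that rose beside lists that fell. Among the oxidative lists the share of members still called depended on which library was missing, and among the MHC and GTPase lists it did not. The fitted medians of both kinds of list differed by less than 0.1 between all 9 libraries and the fit without replicate 3 for the lists in that plot. Replicate 3 lay between its group mates for most genes, so this fit could move the medians little.

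**Figure D5:**
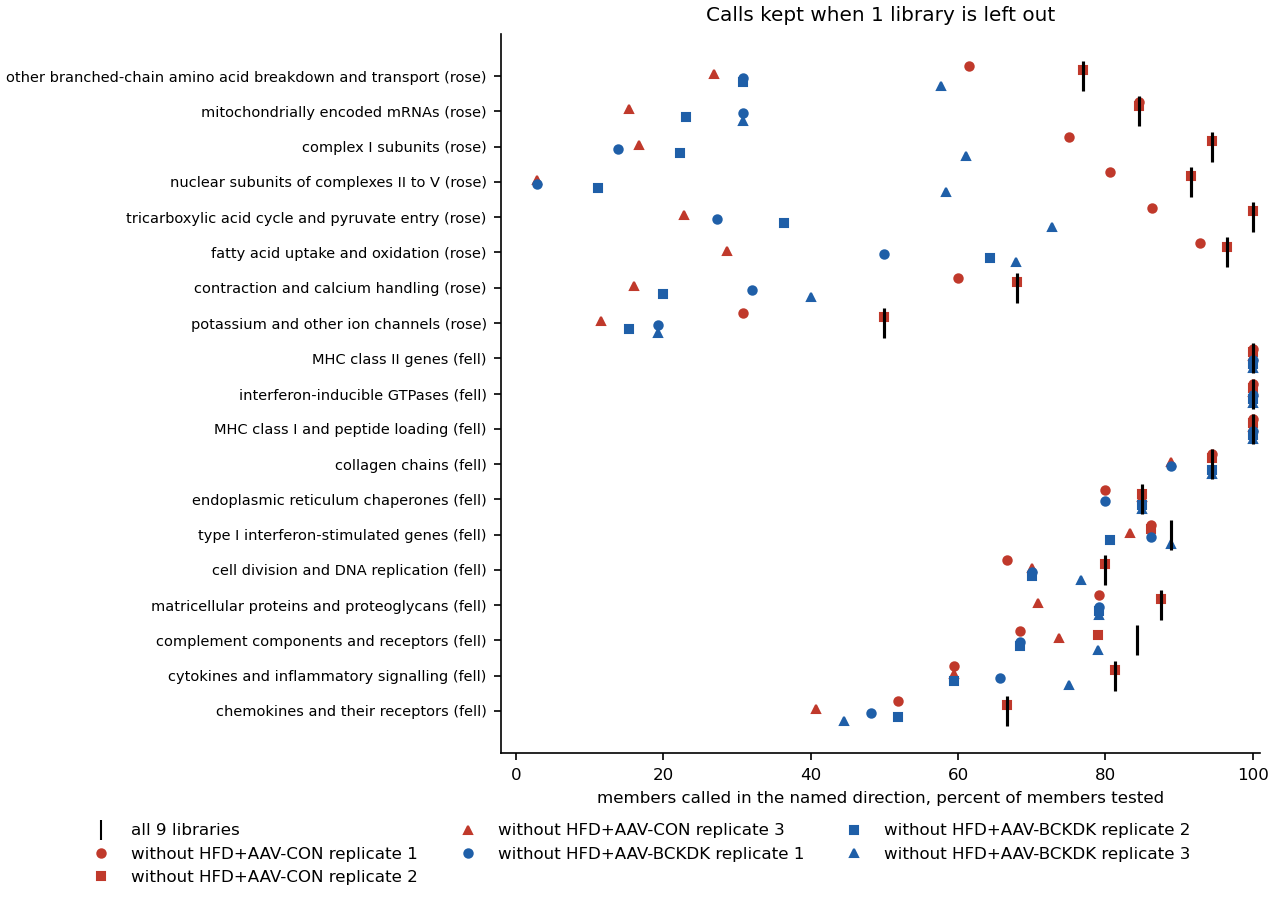
Share of tested members called in the named direction (x axis, percent) for 8 lists that rose and 11 that fell, with all 9 libraries (black bar) and with 1 high-fat-diet library left out (red HFD+AAV-CON, blue HFD+AAV-BCKDK, symbols for replicate 1, 2 and 3 as circle, square and triangle). Complex I goes from 34 of 36 members called to 5 to 34, whereas MHC class I, MHC class II and GTPase members stay at 19, 10 and 17 in all 6 fits.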

How the data were processed

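Bulk mRNA sequencing of 9 left ventricles was deposited by the authors as 1 table of raw read counts per gene. HISAT2 2.0.5 and build mm10 are named per the submitters' processing notes, while the counting tool, annotation and use of strand are not stated there. Reads in overlapping genes therefore cannot be assigned with certainty. Of 26178 rows, 4142 loci without a gene name were left out, leaving 22036, and no column of counts lacked a sample. Genes with enough reads (filterByExpr of edgeR 4.0.16, R 4.3.3) were tested by edgeR's quasi-likelihood test with TMM scaling, 1 coefficient per group over all 9 libraries and Benjamini-Hochberg adjustment at 0.05. The SE is the absolute log2 fold change divided by the square root of F. The common biological coefficient of variation was 18.6%, with 6 residual degrees of freedom. Replicate libraries differed by more than sampling noise. On simulated data with 200 changed genes among 14160, 53.7% of 2-fold and 87% of 4-fold changes were called, and 7.04% of calls were false. DESeq2 1.42.0 and limma 3.58.1 served as alternatives.

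The members and the 57 gene lists were chosen with earlier results of these data known. Named genes are the dehydrogenase list, the 10 that rose and the 10 that fell most (log2 CPM of at least 1, groups not overlapping, no predicted symbols), the 5 most abundant called genes per direction changed at least 2-fold and not mitochondrially encoded, up to 6 per direction beyond all 6 control-vector libraries, and of each list up to 4 members with the smallest p and those moving against most of the list. Other genes were named after their values were seen, and some genes are not reported here. Of 1141 listed genes 1134 matched the table, 18 of them by an older symbol. Promoter windows come from RefSeq on GRCm38.p6. Replicate numbers did not pair the libraries.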

Additional observations from a re-analysis of the deposited data

Results flagged for a closer look

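Loci without a gene name, which enter no comparison of named genes, held 5.97% of counts on average in the HFD+AAV-BCKDK libraries and 3.78% in HFD+AAV-CON (exact two-sided permutation p = 0.1, the smallest that 3 against 3 allows). They are listed here because counts appear in rows outside the main measurement at a level above that of the control vector. HFD+AAV-CON replicate 3, at 1.02%, sets most of that difference. Of 1194 such loci with enough reads to test, 24 were called, 17 higher and 7 lower with the vector.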

How the results depend on the processing

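Leaving out 1 library at a time gave 2847 to 6978 calls in all, 984 to 3555 higher and 1863 to 3423 lower. A false discovery rate of 0.01 left 2058 calls (497 higher, 1561 lower), and a demand for 2-fold change left 1664 (203 higher, 1461 lower). A fit on the 6 high-fat-diet libraries alone called 4095 genes, 1491 higher and 2604 lower. Total-count scaling called 398 higher and 6867 lower, and it moved the median of all genes tested from -0.01 to -0.47. It also turned Fhl1 to -0.17, Myom1 to -0.043, Shmt2 to -0.0525, Cirbp to -0.16, Cenpa to -0.0315, Psmb6 to -0.0696, Rpl14 to -0.15, Rps14 to -0.0855, Gata4 to -0.13, Uty to -0.0982 and Eif2s3y to -0.0848. List medians that turned with it were glucose use (-0.17), adrenergic and endothelin genes (-0.11), antioxidant genes (-0.15), JNK and p38 components (-0.38), the clock (-0.28), insulin signalling (-0.37), ribosomal proteins (-0.30), pericyte (-0.45), neutrophil (-0.20), mesothelial (-0.17), skeletal muscle (-0.25) and liver (-0.27) markers and sex-linked genes (-0.25). Medians of sparse lists also turned when a library was left out. The neutrophil median was -0.13 to 0.66 (lowest without HFD+AAV-CON replicate 1, and -0.0913 without HFD+AAV-BCKDK replicate 3), the skeletal muscle median was -0.0927 to 0.36 (lowest without HFD+AAV-BCKDK replicate 2, and -0.0073 without HFD+AAV-CON replicate 3), and the liver median was -0.0836 to 0.39 (lowest without HFD+AAV-CON replicate 1, and -0.0824 without HFD+AAV-BCKDK replicate 1). The cause of the shifts with a library left out was not tested. Of 261 named genes called, 52 were not called in the same direction with total-count scaling (11 of them turned, as above), 56 without replicate 3 of HFD+AAV-CON, 12 with limma-voom and 2 of 260 with DESeq2. The change of Bckdk kept its direction and its call, and the mitochondrial share its direction, in every alternative run for them. With the replicate number as a block, 4922 genes were called (2250 higher, 2672 lower) and Bckdk rose by 1.25. Deviations of same-numbered libraries correlated at -0.22, -0.10 and 0.10, so the numbers do not show a pairing.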

Other observations

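Marker lists of minor cell types and of neighbouring tissues were measured in the same libraries. Of 4 adipocyte markers 1 rose and 0 fell, with sums of 75.2 to 84.6 CPM against 51.5 to 72.0 CPM. The adipocyte median over these 4 was 1.02. Without HFD+AAV-CON replicate 3 the filter admitted 6 adipocyte markers, with a median of 2.65, so these medians cover different sets of genes. Of 12 pericyte and smooth muscle markers 3 rose and 0 fell. Of 7 Schwann cell and neuron markers 0 rose and 1 fell. Over all genes 17.3% rose and 20.9% fell.

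Nnt, the mitochondrial transhydrogenase that makes NADPH, was counted in 2 overlapping gene models, ENSMUSG00000025453 and ENSMUSG00000116207. The first model held 62.7%, 3.77% and 73.6% of the Nnt reads for HFD+AAV-BCKDK. It held 3.21%, 60.5% and 69.5% for the HFD+AAV-CON hearts. For ND+AAV-CON its share was 7.43%, 66.1% and 1.93%. The libraries thus fall into 4 with under 8% and 5 with over 60%, and both kinds occur in all 3 groups. The sum over both models was 376, 528 and 329 CPM in HFD+AAV-BCKDK and 134, 263 and 201 CPM in HFD+AAV-CON.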
